A study of Mus musculus with 8 samples.

Results

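The complement system is a cascade of plasma proteins that marks cells and debris for removal. Its classical pathway starts when C1q with the proteases C1r and C1s cleaves C4 and C2, and its alternative pathway amplifies itself when C3b binds factor B and the pair is stabilised by properdin. Both routes cleave C3 and C5 and release small fragments that are read by receptors on myeloid cells. Adipocytes are a known source of factor D, or adipsin, the protease that cleaves factor B.

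Described here are 9 mouse complement genes, chosen by name in the array annotation, on 11 of the 39429 probes of the array: Cfb, C3, C2, C4b, Cfp, C1s, C1ra, C3ar1 and C5ar1. They are 9 of the 31896 gene names on it. The list was drawn up after Cfb was seen to be high in 11-month-old knockout tissue, so every 11-month value of these genes, and its difference from 6 weeks, is a description with no test. The rule did not use the 6-week arrays, and they are tested, although earlier results of these data were known. The spread in that test was estimated over both ages.

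Brown adipose tissue was taken from mice labelled Prdm16 KO and from mice labelled WT, at 6 weeks and at 11 months of age. Prdm16 is a transcriptional regulator of the brown fat programme. A knockout and a wild-type RNA of matching age were hybridised together on each of 8 Agilent 2-colour arrays, 4 for each age, and 2 of each 4 had the dyes swapped. The sources used here do not give the allele, any Cre driver, the strain or the sex. The labels number the replicates and do not say that each is a separate animal, so p-values measure the spread between these samples.

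The readout is the log2 ratio of knockout over wild-type intensity per array, after background correction and loess normalization, and "called" means an adjusted p below 0.05 in limma across 21736 genes. In each channel 61.2% to 68.2% of spots lay well above background, and none was saturated. The ages were run as separate batches on separate slides, so age and batch cannot be told apart. Prdm16 itself had log2 ratios of -0.39, 0.06, -1.09 and -0.88 at 6 weeks, and of -0.96, -0.18, -0.44 and -0.42 at 11 months. It was called lower at both ages, by limma with -0.58 ± 0.15 (SE; adjusted p = 0.042) and -0.50 ± 0.15 (SE; adjusted p = 0.0372), although on the second 6-week array the channel labelled knockout was not lower. The call was lost in 12 of 20 alternatives at 6 weeks and in 8 at 11 months, with limma adjusted p up to 0.238 and 0.349. Whether the probe lies in a deleted part was not tested. Skeletal muscle genes stood apart on single arrays, with median log2 ratios over 15 genes of 0.09, -2.71, 2.80 and -3.35 at 6 weeks and of -0.43, -1.06, -0.26 and 1.72 at 11 months, and limma called no gene of that list at either age, with 1 gene at an unadjusted p below 0.05 at 6 weeks and 0 at 11 months.

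All 11 probes are 60 bases long and passed the filter on dim spots, under which 4 or more of 16 channel signals had to be well above background. The sequences of Cfb and C2 are shown because these genes carry the 6-week result, and those of C4b, C1s and C1s2, a paralog of C1s, because they bear on which gene a probe reads. On build mm9, Cfb is probed at chr17:34993502-34993858 on the minus strand, an interval of 357 bases. The C2 probe lies at chr17:34999575-34999634 and the C4b probe at chr17:34865328-34865387, both on the minus strand, so the Cfb and C2 probes start 6.07 kb apart and the C4b and Cfb probes 128 kb apart. C1s is read at chr6:124480775-124480834 and C1s2 at chr6:124574742-124574801 and chr6:124575671-124575730, all on the minus strand. Exon or UTR positions were not used here, since no annotation of this build was at hand.
Cfb: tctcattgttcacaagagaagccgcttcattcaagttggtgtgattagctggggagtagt
C2: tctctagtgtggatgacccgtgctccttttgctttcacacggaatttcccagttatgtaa
C4b: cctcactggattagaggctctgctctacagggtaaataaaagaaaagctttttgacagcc
C1s: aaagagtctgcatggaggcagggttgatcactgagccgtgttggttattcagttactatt
C1s2, first probe: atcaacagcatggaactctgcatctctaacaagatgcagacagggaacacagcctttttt
C1s2, second probe: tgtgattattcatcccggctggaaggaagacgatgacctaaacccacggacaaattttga
The array's accession list ties the C4b probe to C4a as well, and the first C1s2 probe to C1s as well. Signal of C4b and of its near-identical copy C4a therefore cannot be told apart here, nor can that of C1s2 and C1s on the first C1s2 probe. C1s is the array's name for the gene RefSeq calls C1s1.

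At 6 weeks, 2 of the 9 genes were called, Cfb and C2, both higher in knockout tissue, and none was called lower. Across all genes tested, 16.2% were called at 6 weeks, 9.18% higher and 7.02% lower. Of the genes called, 56.7% were higher, and this share was 70% after median centring in place of loess. On the main probe of each gene, ratios were above 0 on all 4 arrays for 4 of the 9, Cfb, C2, C3 and C5ar1, as for 17.9% of all genes. They were below 0 on all 4 for 2, C4b and C1s, as for 16.6%. The second C3 probe was above 0 on 2 of 4 arrays. The 7 complement genes not called had fitted log2 ratios between -0.48 and 0.14. The median over the 9 was 0.11, against -0.0012 over all genes tested.

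Cfb encodes factor B, which becomes the catalytic subunit of the alternative pathway convertase. Its log2 ratios at 6 weeks were 2.44, 1.56, 1.2 and 1.24, so the knockout channel was the higher one on all 4 arrays. The lowest knockout level, 11.35 on the log2 intensity scale, was above the highest wild-type level, 10.19. That separation held for 2 of the 9 genes, Cfb and C2, and for 10.6% of all genes at this age. In the fit, Cfb was higher by 1.61 ± 0.19 (SE from the model of all 8 arrays), a 3.05-fold difference (limma adjusted p = 0.0031). Its 4 ratios had an SD of 0.58, and its limma adjusted p was 0.00897 with each age modelled alone. Its call held in all 20 alternative fits, with adjusted p from 0.00146 to 0.0409. Without the second 6-week array, where Prdm16 was not lower, Cfb stood at 1.68 (limma adjusted p = 0.0157).

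At 11 months the Cfb ratios were 3.41, 3.82, 3.62 and 3.17, all above the highest 6-week ratio. The mean was 3.51 ± 0.28 (SD, n = 4), or 11.4-fold. Knockout levels averaged 13.90 ± 0.67, against 10.40 ± 0.48 in wild-type tissue (SD, n = 4 each). At 6 weeks they were 11.66 ± 0.55 in knockout and 10.05 ± 0.19 in wild-type tissue. Wild-type levels of the 2 ages overlapped, between 9.77 and 10.87 at 11 months and between 9.78 and 10.19 at 6 weeks, whereas every 11-month knockout level was above every 6-week knockout level. Among the 21736 genes, Cfb ranked 14 from the top at 11 months and 90 at 6 weeks.

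C2 encodes the classical pathway counterpart of factor B and is its neighbour on the chromosome. Its 6-week log2 ratios were 1.78, 1.16, 1.58 and 0.67, again all above 0. Knockout levels reached down to 10.76, and wild-type levels up to 10.25, so the groups did not overlap. The fitted difference was 1.29 ± 0.24 (SE), or 2.45-fold higher (limma adjusted p = 0.0137). Leaving out the first or the third 6-week array ended the call, with limma adjusted p of 0.0694 and 0.0599, at 1.1 and 1.18.

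At 11 months the C2 ratios were 2.61, 3.49, 3.19 and 2.20, with a mean of 2.87 ± 0.58 (SD, n = 4), or 7.32-fold. All 4 were above the highest 6-week ratio. Knockout levels averaged 13.09 ± 0.81 and wild-type levels 10.22 ± 0.47 (SD, n = 4 each). The C2 ratio was below that of Cfb on 7 of the 8 arrays, and above it on the third 6-week array.

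C4b encodes C4, the substrate of C1s that binds covalently to the target surface. At 6 weeks its ratios were -0.01, -0.46, -0.19 and -0.95, none above 0, and knockout and wild-type levels overlapped. The fitted value was -0.41 ± 0.18 (SE), which was not called (limma adjusted p = 0.163; 0.0424 with the replicate number as a block). At 11 months the ratios were 1.93, 2.14, 2.54 and 1.56, with a mean of 2.04 ± 0.41 (SD, n = 4), or 4.11-fold. Every array was thus on the other side of 0 from the 6-week arrays, and the 11-month knockout levels, 12.90 to 14.28, were above the wild-type levels, 11.33 to 12.18. C4b ranked 104 of 21736 from the top at 11 months and 20498 at 6 weeks.

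**Figure D1:**
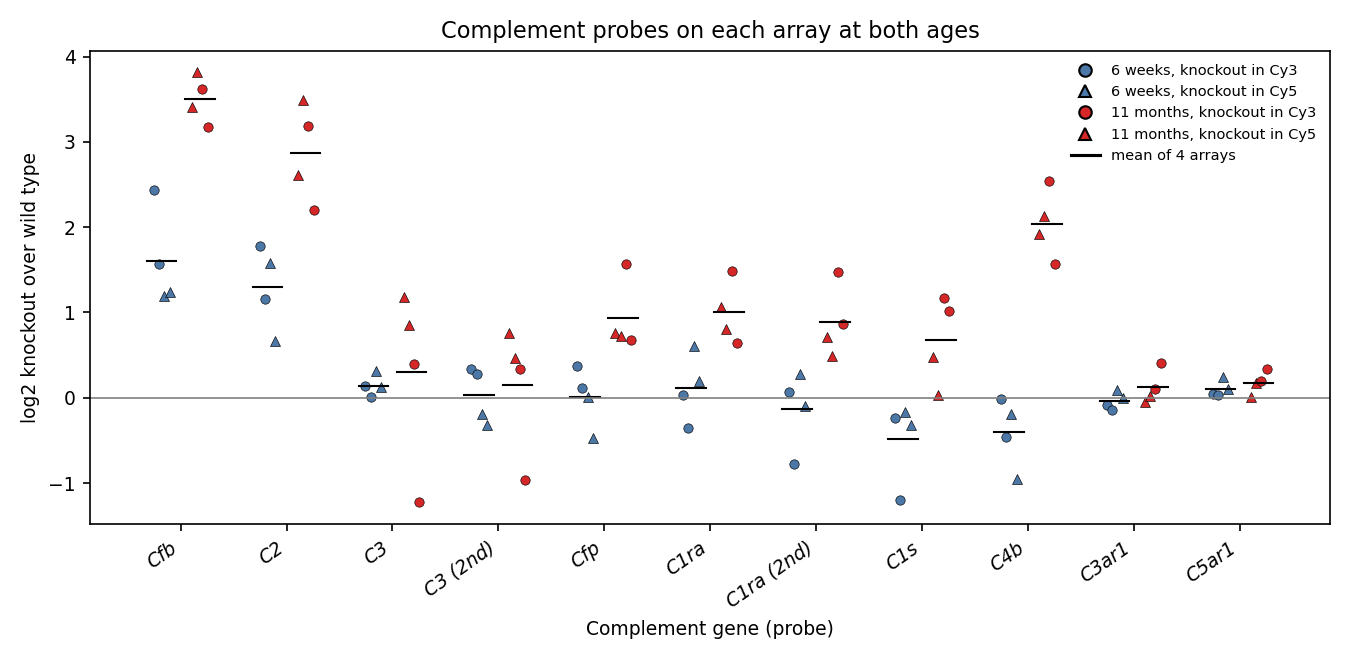
Log2 ratio of knockout over wild type (y axis) for each of the 11 complement probes (x axis) on each array, in blue at 6 weeks and in red at 11 months. Circles mark arrays with knockout RNA in Cy3 and triangles those with it in Cy5, and bars are means of 4 arrays. Cfb and C2 lie above 0 on every array, C4b lies at or below 0 at 6 weeks and between 1.56 and 2.54 at 11 months, and C3ar1 and C5ar1, both on dim probes, stay near 0.

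C3 is the central component that both pathways cleave. Its main probe, spotted 10 times per array, gave 6-week ratios of 0.14, 0.0036, 0.31 and 0.12 and a fitted value of 0.14 ± 0.27 (SE; limma adjusted p = 0.754). That SE includes the wider 11-month spread, and the 6-week ratios had an SD of 0.13. With each age modelled alone the limma adjusted p was 0.171, and without 11-month array 4 it was 0.301. At 11 months the ratios were 1.18, 0.85, 0.40 and -1.22, so 3 arrays were higher in knockout tissue and array 4 was lower. The mean was 0.30 ± 1.07 (SD, n = 4), and it was 0.75 without array 4. The spots on each array differed little, with an SD of 0.03 to 0.05, so the spread lies between arrays and not between spots. The second C3 probe had 6-week ratios of 0.34, 0.28, -0.19 and -0.32, above 0 only where knockout RNA was in Cy3. At 11 months it had the same order as the main probe, with 0.77, 0.47, 0.34 and -0.96. 11-month array 4 was also the one on which skeletal muscle genes were highest in the knockout channel, with a median of 1.72. Their part in the C3 value was not tested.

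**Figure D2:**
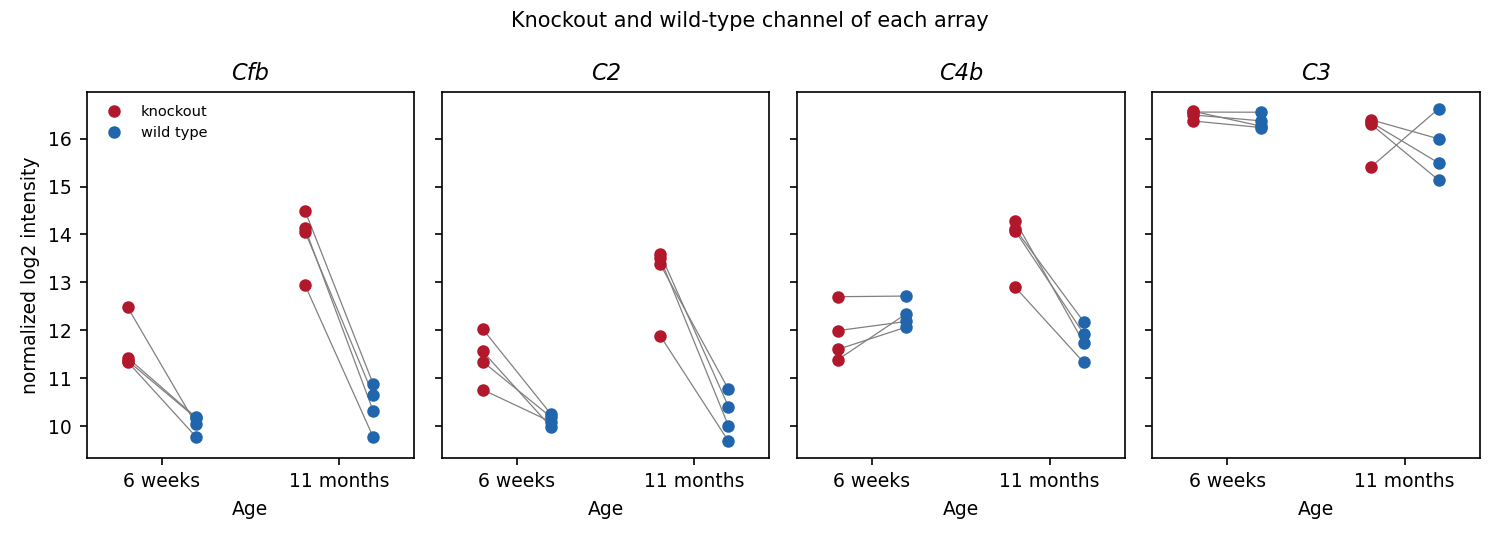
Normalized log2 intensity (y axis) of the knockout channel in red and the wild-type channel in blue, at each age (x axis), for Cfb, C2, C4b and C3, with a line for each array. Levels of different genes come from different probes and cannot be set against each other. Knockout lies above wild type on every array for Cfb and C2, and for C4b at 11 months only, while the C3 lines cross at 11 months.

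Cfp encodes properdin, which stabilises the alternative pathway convertase and is made mainly by myeloid cells. At 6 weeks its ratios were 0.37, 0.12, 0.0047 and -0.47, on both sides of 0 (0.0052 ± 0.14, SE; limma adjusted p = 0.985). At 11 months they were 0.76, 0.72, 1.57 and 0.68, with a mean of 0.93 ± 0.43 (SD, n = 4), or 1.91-fold. The third array stood above the others, and knockout levels, 10.79 to 11.95, did not overlap wild-type levels, 10.11 to 10.64.

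C1ra and C1s encode the serine proteases of the C1 complex, and their probes start 7.72 kb apart on chromosome 6. C1ra ratios were 0.03, -0.35, 0.60 and 0.20 at 6 weeks (0.12 ± 0.16, SE; limma adjusted p = 0.658). At 11 months they were 1.06, 0.81, 1.48 and 0.65, with a mean of 1.0 ± 0.36 (SD, n = 4), or 2.0-fold. The second C1ra probe averaged -0.13 at 6 weeks, on the other side of 0 from the first, and 0.89 at 11 months. C1s ratios were -0.24, -1.2, -0.17 and -0.31 at 6 weeks, below 0 on all 4 arrays and lowest on the second (-0.48 ± 0.22, SE; limma adjusted p = 0.179, and 0.0198 with the replicate number as a block). Without that array the fitted value was -0.15. At 11 months C1s ratios were 0.47, 0.04, 1.17 and 1.02, with a mean of 0.68 ± 0.52 (SD, n = 4), or 1.60-fold, and the knockout and wild-type levels overlapped.

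C3ar1 and C5ar1 encode the receptors for the fragments C3a and C5a. C3ar1 had ratios between -0.14 and 0.09 at 6 weeks (-0.04 ± 0.08, SE; limma adjusted p = 0.804) and between -0.05 and 0.41 at 11 months. C5ar1 ratios ran from 0.03 to 0.24 at 6 weeks (0.11 ± 0.07, SE; limma adjusted p = 0.329) and from 0.01 to 0.33 at 11 months. Both probes were dim, with mean log2 levels per age and genotype of 7.13 to 7.28 for C3ar1 and 6.87 to 7.14 for C5ar1. The C3ar1 signal was well above background in all 16 channel measurements. The C5ar1 signal was well above background in 11 of 16 channel measurements, and at 11 months in 3 of 4 knockout and 1 of 4 wild-type channels. Its 11-month mean of 0.18 was 0.48 with no background correction and 1.24 with the scanner software's own log ratio.

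Of the 9 genes, 6 passed the calling threshold as higher at 11 months and none as lower, with 34.7% of all genes called at that age, 17.9% higher and 16.8% lower. These counts and those that follow describe the 9 and test nothing, because the 11-month arrays chose the list. Of the genes called, 51.6% were higher, and this share was 70.9% after median centring. Ratios at 11 months were above 0 on all 4 arrays for 7 of the 9, as for 25% of all genes, and below 0 on all 4 for 0 of the 9, as for 25.3%. The knockout levels lay wholly above the wild-type levels for 5 of the 9, Cfb, C2, C4b, Cfp and C1ra, and for 12.9% of all genes. The median over the 9 genes was 0.93, against 0.0083 over all genes. In size the order was Cfb, C2, C4b, C1ra, Cfp, C1s, C3, C5ar1 and C3ar1. In that order the array ranges of all neighbours overlapped, except those of C4b and C1ra.

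Other genes near Cfb on chromosome 17 had smaller ratios. Within 150 kb on either side of the Cfb probe, 16 other genes were tested, and limma called none at 6 weeks, with 3 at an unadjusted p below 0.05, where their values ran from -0.30 to 0.21. At 11 months 5 of these were called higher and 3 lower, and their log2 ratios ran from -0.62 to 0.56 with a median of 0.19.

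**Figure D3:**
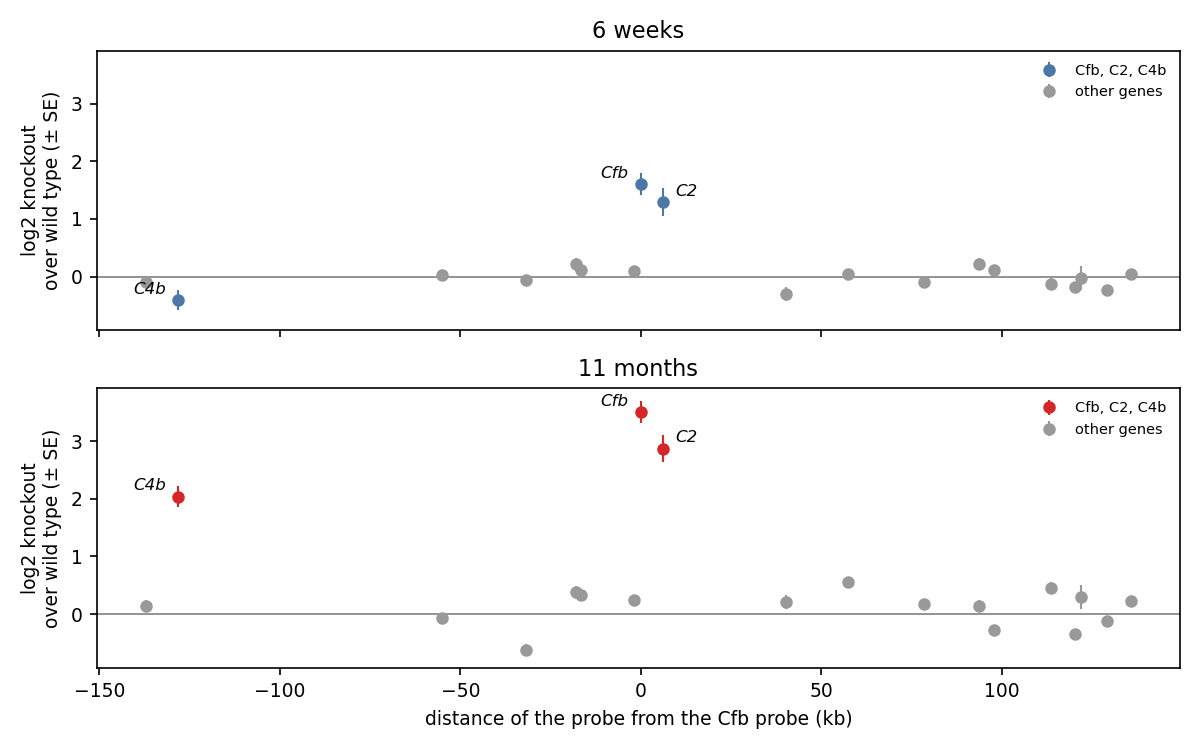
Fitted log2 ratio of knockout over wild type (y axis, bars are SE) against the distance of each gene's probe from the Cfb probe in kb (x axis), at 6 weeks above and at 11 months below. Cfb and C2 stand above all 16 other genes at both ages, and C4b does so at 11 months only; the other genes reach at most 0.56.

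Beyond these 9, 47 further complement genes were listed, 46 were on the array and 33 were tested. At 6 weeks 4 were called higher and 3 lower, 7 of 33 in all, with a median of -0.04, where 16.2% of all genes were called. At 11 months 13 were called higher and 5 lower, 18 of 33 in all, with a median of 0.23, where 34.7% of all genes were called. The 11-month count includes C1s2, whose first probe may read C1s. The 6-week count was 3 with median centring or the scanner's log ratio, and 1 without 6-week arrays 2 and 4 and 11-month array 4, whose muscle gene medians were -2.71, -3.35 and 1.72; 6-week array 3, with a median of 2.80, was kept. C9, Hc, C8a and C8b of the terminal pathway, Cfi, which degrades C3b, and the mannose-binding lectins Mbl1 and Mbl2 did not pass the filter on dim spots.

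In the alternative pathway Cfd, encoding adipsin, had the largest ratio of the 33. At 6 weeks its log2 ratios were 0.43 and 0.37 on the arrays with knockout RNA in Cy3, and 2.87 and 1.91 on those with it in Cy5. The fitted value was 1.40 ± 0.30 (SE), 2.63-fold (limma adjusted p = 0.0227), a call lost when any one 6-week array was left out or with no dye term (adjusted p = 0.1). At 11 months the ratios were 4.99, 5.29, 4.93 and 2.94, with a fitted value of 4.54 ± 0.30 (SE), 23.3-fold (limma adjusted p = 6.17e-05). C8g, a chain of the membrane attack complex and the one terminal component called, was lower at both ages, by -0.88 ± 0.18 and -1.02 ± 0.18 (SE; limma adjusted p = 0.0204 and 0.0041). Its second probe averaged -0.41 and -0.38, and the 6-week call was lost in 5 of 20 alternatives.

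In the classical and lectin pathways none of the 11 genes tested was called at 6 weeks, where 1 had an unadjusted p below 0.05. At 11 months 5 were higher and 1 lower. The 3 chains of C1q, the recognition molecule of the classical pathway, were called higher together: C1qa by 0.58 ± 0.11, C1qb by 0.51 ± 0.12 and C1qc by 0.63 ± 0.12 (SE; limma adjusted p = 0.0055, 0.0118 and 0.0054). C1qa ratios were 0.04, 0.02, 1.39 and 0.88, so the difference was carried by the arrays 3 and 4, both with knockout RNA in Cy3. Without a dye term the limma adjusted p was 0.119 for C1qa and 0.126 for C1qb. Of 20 alternatives the call was lost in 1 for C1qa, in 2 for C1qb and in none for C1qc. Macrophage genes, 18 of which were tested, had median ratios of 0.10, 0.11, 0.70 and 0.61 on the same arrays. C1s2 had 11-month ratios of 0.48, 0.12, 1.19 and 0.93 on its first probe, in the same array order as C1s, and its second probe averaged 0.05. The call of C1s2 was lost in 4 of 20 alternatives. Since its first probe may read C1s, which is among the 9 genes, that call is a description too. C1rb, a C1r paralog, was called higher at 0.24 and C1rl, a C1r-like protease, lower at -0.24, and the calls were lost in 4 and 9 of 20 alternatives.

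Of 11 regulators tested, 5 were called higher and 3 lower at 11 months. Clu, encoding clusterin, an inhibitor of the terminal complex, was higher by 0.98 ± 0.14, and Cd55, encoding the convertase inhibitor decay-accelerating factor, by 0.83 ± 0.17 (SE; limma adjusted p = 0.0015 and 0.0071). Cd55b, its paralog, was higher by 0.96 ± 0.12 (SE; limma adjusted p = 0.00084), but its second probe averaged -0.06. Cd59a, an inhibitor of the membrane attack complex, was lower by -0.43 ± 0.12 (SE; limma adjusted p = 0.0253), a call lost in 6 of 20 alternatives, with adjusted p up to 0.52 and values up to -0.22. Cpn2, a subunit of carboxypeptidase N, which inactivates C3a and C5a, was lower at both ages, by -1.14 ± 0.19 at 6 weeks and -2.64 ± 0.19 at 11 months (SE; limma adjusted p = 0.0089 and 7.28e-05). Its second probe averaged -0.41 and -0.89, and the 6-week call was lost in 3 of 20 alternatives. Vtn and Cr1l were called higher at both ages with values from 0.20 to 0.32. The call of Vtn was lost in 8 of 20 alternatives at 6 weeks and in 3 at 11 months, with limma adjusted p up to 0.275 and 0.0931, and that of Cr1l in 6 and in 11, up to 0.0983 and 0.169. Cfhr2 was called lower at 11 months at -0.24 while its second probe averaged 0.25. Cd55b was called lower at 6 weeks at -0.45, a call lost in 16 of 20 alternatives, and its second probe averaged -0.06 there. The C1 inhibitor Serping1, at 0.55 ± 0.19, did not pass the threshold at 11 months (SE; limma adjusted p = 0.0552).

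Of 7 further receptors, C5ar2, the second receptor for C5a, was the one called at 6 weeks. Its ratios there were 0.78, 1.63, 1.01 and 0.87, with a fitted value of 1.07 ± 0.15 (SE), 2.10-fold (limma adjusted p = 0.0054). At 11 months they were -0.66, -0.48, 0.23 and 0.49, and the gene was not called at -0.11 ± 0.15 (SE; limma adjusted p = 0.633). Cd93, a C1q receptor-like protein, was called higher at 11 months at 0.67 ± 0.10, as was Itgb2, the beta chain of complement receptors 3 and 4, at 0.23 ± 0.05 (SE; limma adjusted p = 0.0020 and 0.0091). The Itgb2 call was lost in 2 of 20 alternatives, with limma adjusted p up to 0.0778. At 11 months Itgb2 ratios were 0.08 and 0.12 on the arrays with knockout RNA in Cy5, and 0.34 and 0.36 on those with it in Cy3. The partner chains of Itgb2, Itgam and Itgax, were not called, at -0.12 and 0.38, and further Itgam probes averaged -0.50 and -0.0029 at 11 months.

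**Figure D4:**
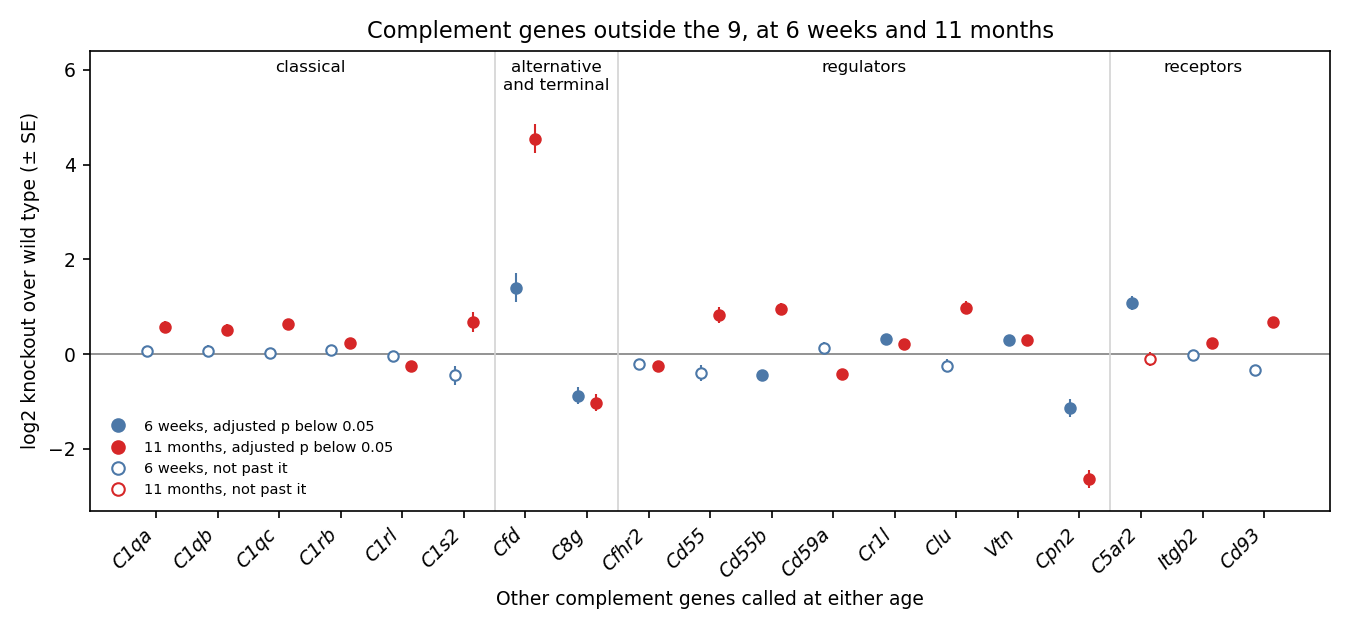
Fitted log2 ratio of knockout over wild type (y axis, bars are SE) for the 19 further complement genes called at either age (x axis, grouped by role), in blue at 6 weeks and in red at 11 months, filled where limma's adjusted p was below 0.05. Cfd has the highest value at 4.54 and Cpn2 the lowest at -2.64, both at 11 months.

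Markers of several cell types also differed at 11 months, when 17.9% of all genes were called higher and 16.8% lower. In bulk tissue, a change in the number of cells of a type and in the RNA per cell cannot be told apart. Of 18 macrophage genes 9 were called higher and none lower, with a median of 0.38, among them Cd14 at 1.05, Aif1 at 0.96 and Mrc1 at 0.87. Their summed linear intensity ran from 14800 to 32300 in knockout channels and from 10000 to 13300 in wild-type channels. Of 10 fibroblast genes 8 were called higher, with a median of 0.94, led by Col3a1 at 1.90, Col1a1 at 1.72 and Dpt at 1.63, and with sums of 104000 to 299000 in knockout and 54500 to 71200 in wild-type channels. Of 7 neutrophil genes 3 were called higher and 1 lower, with sums of 3620 to 6480 in knockout and 3450 to 4330 in wild-type channels. Limma called no lymphocyte gene of 9, with 1 at an unadjusted p below 0.05. The part of these cells in the complement values was not tested.

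Of 8 genes of hepatocytes, the main source of plasma complement, Alb, Ttr, Apoa1 and Fgb did not pass the filter on dim spots and 4 did. At 11 months Cyp2e1, at 4.11, and Serpina1a, at 1.2, were called higher, and Apoa2, at -0.18, and Fga, at 0.03, were not called. Cyp2e1 is also known from white fat. Their 4 intensities summed to between 152000 and 181000 in knockout and between 11200 and 22600 in wild-type channels. All 8 brown adipocyte genes were called lower at 11 months, with a median of -2.78 and sums of 67000 to 356000 in knockout and 1250000 to 1690000 in wild-type channels. Of 7 white adipocyte genes 6 were called higher, with a median of 1.88 and sums of 199000 to 373000 in knockout and 16000 to 38300 in wild-type channels. At 6 weeks limma called none of the 8 brown adipocyte genes, with 2 at an unadjusted p below 0.05, and 4 of the 7 white adipocyte genes were called higher, with medians of -0.30 and 0.96. Of all genes, 9.18% were called higher and 7.02% lower at that age. Of the 4 hepatocyte genes, Cyp2e1, at 1.74, and Serpina1a, at 1.32, were called higher at 6 weeks and Apoa2 lower, at -0.28, with sums of 52700 to 110000 in knockout and 17400 to 53200 in wild-type channels. The median ratios of the 4 were 0.05 and -0.05 on the 6-week arrays with knockout RNA in Cy3, and 1.43 and 1.12 on those with it in Cy5. On 6-week array 1 their sums were 52700 in the knockout and 52900 in the wild-type channel. Of 8 genes common to all adipocytes 5 were called higher at 6 weeks and 6 at 11 months, with medians of 0.42 and 0.56. Their sums were 522000 to 728000 in knockout and 398000 to 646000 in wild-type channels at 6 weeks, and 702000 to 783000 in knockout and 419000 to 676000 in wild-type channels at 11 months. The part of hepatocyte and adipocyte genes in the complement values was not tested. At 6 weeks 1 of 18 macrophage genes was called higher and 1 lower, and no fibroblast gene was called or had an unadjusted p below 0.05. The macrophage sums at 6 weeks, 12700 to 17000 in knockout and 13300 to 13900 in wild-type channels, overlapped. Within arrays, the knockout sum was above the wild-type sum on arrays 1, 2 and 3 and below it on array 4.

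The array-to-array pattern of Cfb was compared with that of other genes by Pearson correlation over the 8 dye-adjusted log2 ratios, which form a group for each age, so the values are a description. Among the 9 complement genes the correlation with Cfb was 0.957 for C4b, 0.938 for C2, 0.891 for Cfp, 0.751 for C1ra, 0.700 for C1s, 0.368 for C3, 0.277 for C3ar1 and 0.147 for C5ar1. Of 1162 genes with an 11-month difference of at least 1 in size, Trf, encoding transferrin, was the most like Cfb, with a correlation of 0.991. Trf was higher by 1.70 ± 0.18 at 6 weeks and by 3.79 ± 0.18 at 11 months (SE). An unnamed transcript, the cell-surface protein gene Tenm4, the metalloprotease gene Adam15 and the chemokine gene Ccl2 followed, with correlations of 0.991, 0.989, 0.989 and 0.989. They differed in their 6-week values, which were -0.08, 0.72, 0.05 and -0.46.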

How the data were processed

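Total RNA of brown adipose tissue was hybridised to Agilent 2-colour mouse arrays, per the labels' protocols. The deposited scanner files give, per the file headers, spot intensity and local background per channel and a log10 ratio from Agilent Feature Extraction 10.5.1.1 (6 weeks) and 10.10.1.1 (11 months), annotated to mm9. The deposited value table of log2 ratios was set against the ratios computed here, with r = 0.885 to 0.978 per array, lowest on 11-month array 3. The tool of that table is limma, per the submitters' processing notes.

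Intensities were corrected with normexp (offset 50), normalized by loess within each array, and turned to log2 knockout over wild type (limma 3.58.1, R 4.3.3). Spots of a probe were averaged; probes well above background in at least 4 of 16 channel measurements and with values on 3 or more arrays per age were kept (26842 of 39429). The probe with the highest mean intensity stood for a gene, giving 21736 genes, 14971 named through RefSeq accessions. One limma model had a coefficient for each age and 1 for dye, with Benjamini-Hochberg adjustment over all genes. The number of arrays limits the precision. Channel levels were scaled between arrays by Aquantile. Sequences are the array's probes. The method was tested on simulated data.

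The genes and lists were chosen with earlier results of these data known. Named are the 9 genes, Prdm16, every further listed complement gene called at either age, the 5 genes most like Cfb, and up to 3 called genes of each marker list; a few others were named after their values were seen. Alternatives were the scanner's log ratio, median centring, no background correction, the deposited table, no and a strict filter (8 of 16), the mean of a gene's probes, no dye term or 1 per age, each age alone, a replicate block and leaving out each array.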

Additional observations from a re-analysis of the deposited data

Results flagged for a closer look

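Some complement genes differed between the ages. For C4b every array was lower in knockout tissue at 6 weeks and higher at 11 months, and the 11-month value was 2.45 above the 6-week value on the log2 scale. C1s did the same, with a difference of 1.15. Neither difference was tested, since the 11-month arrays chose these genes. On its first probe C1s2 also lay on opposite sides of 0 on every array, with a difference of 1.13. Signal of C1s2 and C1s cannot be told apart on that probe, so this difference is a description as well. The second C1s2 probe averaged -0.11 at 6 weeks and 0.05 at 11 months. Cd93 lay on opposite sides of 0 on every array too, with a difference of 1.01 (limma adjusted p = 0.00481). The test of the difference between ages in the limma model was passed by Cfd at 3.14 (adjusted p = 0.00409), Cd55b at 1.40 (adjusted p = 0.00296), Clu at 1.22 (adjusted p = 0.00741), Cd55 at 1.22 (adjusted p = 0.0137), C1qc at 0.61 (adjusted p = 0.044) and Itgb2 at 0.25 (adjusted p = 0.042), all with the higher ratio at 11 months. The second probe of Cd55b averaged -0.06 at both ages. The age-difference test was passed in the other direction by Cpn2 at -1.5 (limma adjusted p = 0.00954) and C5ar2 at -1.18 (limma adjusted p = 0.0108). The second Cpn2 probe averaged -0.41 at 6 weeks and -0.89 at 11 months. C1qc had 11-month ratios of 0.35, 0.25, 1.23 and 0.68, higher where knockout RNA was in Cy3. The share of all genes passing this test is not given here, and the test was not repeated in the alternative fits. Each age was a batch of its own, so age and batch cannot be told apart.

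Single arrays stood far from the other 3 of their age by Dixon's test, which chance meets in about 1 of 20 groups. They were the log2 ratios of Cfp on 11-month array 3, 1.57, and of C1s on 6-week array 2, -1.20. The others were those of Cfd on 11-month array 4, 2.94, and of Cfhr2 on 6-week array 1, -0.38. For Cfp the flag is a description and no test, since the 11-month arrays chose the list. Many complement genes were screened at both ages, so chance alone can give several such values, and these cannot be told apart from chance. 6-week array 2 is also the one where Prdm16 was not lower, and 11-month array 4 the one where muscle genes were highest in the knockout channel; the part of either in these values was not tested.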

How the results depend on the processing

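Under 20 alternative fits, Cfb kept its call at 6 weeks, and the 11-month log2 ratios of all 9 complement genes kept their sign. The number of the 9 called at 6 weeks was 1 to 2 when single arrays were left out. Whether replicate numbers pair the arrays was computed in 3 versions, which differed. Deviations from the age means gave correlations of -0.12, -0.05, -0.20 and -0.06 for equal numbers, and no 6-week array correlated best with its own number. Deviations from the means of age and dye gave 0.09, 0.09, -0.06 and -0.06, and those after removing the fitted dye effect gave 0.459, 0.44, 0.168 and 0.318, which would have counted as paired. The first version was used, as the plain deviation from the group mean; arrays of equal number had opposite dyes at the 2 ages, and the calls under the block were known when it was chosen. With a replicate block 4 of the 9 were called, adding C4b (limma adjusted p = 0.0424) and C1s (limma adjusted p = 0.0198), and 4186 genes in all at 6 weeks. Genes called at 6 weeks numbered 2279 with the scanner's log ratio and 950 with median centring, against 3521, and 1239 to 4284 when single arrays were left out. At 11 months they numbered 4910 with median centring, against 7544, and 5026 to 7646 when single arrays were left out. Of the 33 further complement genes, those called at 6 weeks numbered 3 with the scanner's log ratio, 3 with median centring and 4 with the deposited table, against 7, and 2 to 7 when single arrays were left out. At 11 months they numbered 11 with no dye term, against 18, and 13 to 19 when single arrays were left out. Without 6-week arrays 2 and 4 and 11-month array 4, a choice made after seeing the data, 2 of the 9 were called at 6 weeks, 797 and 4873 genes were called at the 2 ages, and 1 and 11 of the 33. Cfhr2 at 11 months turned to 0.0026 with the mean of its probes. The causes were not tested. The dim C5ar1 and C3ar1 probes limit what their ratios show.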

Other observations

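Interferon-stimulated genes were higher in 11-month knockout tissue, with 17 of 23 tested called higher, none lower and a median log2 ratio of 0.72, against 17.9% called higher, 16.8% lower and a median of 0.0083 over all genes. The largest were Ifit3, which encodes an antiviral RNA-binding protein, at 1.69, Oas1a, an oligoadenylate synthetase, at 1.49, and Isg15, a ubiquitin-like modifier, at 1.24. At 6 weeks 2 of the 23 were called higher and none lower, with a median of 0.05, where 9.18% of all genes were called higher and 7.02% lower. Summed intensities of the list at 11 months ran from 26800 to 66300 in knockout and from 14000 to 25800 in wild-type channels. This list shares no gene with the 9 complement genes.

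Of 19 genes of inflammation and the acute phase, 11 were called higher and 2 lower at 11 months, with a median of 0.46, where 17.9% of all genes were called higher and 16.8% lower. Ccl2, a monocyte chemokine, stood at 1.80, and the acute-phase genes Orm1 and Orm2 at 1.48 and 1.46. At 6 weeks 2 were called higher, Orm1 at 1.69 and Orm2 at 1.72, and none lower. Orm1 and Orm2 are close paralogs, so a probe of one may read both.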
